A study of Mus musculus with 8 samples.

Results

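The genes described encode the cytosolic initiation factors (eIF) and elongation factors (eEF) of translation, 4 proteins that bind eIF4E and 5 enzymes that modify elongation factors, and all are called factors below. Every gene identifier of the count table that maps in GENCODE M21 to a protein-coding symbol starting with Eif1 to Eif6, with Eef1 or with Eef2 was taken, and the eIF2 kinase genes, Eif2s3x and Eif2s3y were dropped. This gave 61 of 51826 gene identifiers.

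Initiation factors load the initiator tRNA onto the small ribosomal subunit, bring it to the capped end of an mRNA and help it find the start codon. Elongation factors then deliver the aminoacyl tRNAs and move the ribosome along. The kinase mTORC1 releases the cap-binding protein eIF4E from its inhibitors, stress kinases lower initiation by phosphorylating eIF2, and resting lymphocytes of the spleen raise protein synthesis when they are activated.

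Total splenocytes were taken from 8 female BALB/c mice, aged 3 months, after lysis of the red blood cells, and sequenced to learn which transcripts change with tRA. The 4 tRA mice were dosed by mouth each day from weaning with all-trans-retinoic acid (tRA), the active metabolite of vitamin A, at 1 mg/kg body weight in canola oil. The 4 control mice were given the oil alone by the study's methods, and no mouse was injected with pristane, a hydrocarbon oil that induces lupus. The treatment text of the sample labels is the same for all 8 samples and names tRA, so the groups follow the sample titles.

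Counts on genes totaled 30.92 to 37.54 M per control mouse and 31.81 to 35.17 M per tRA mouse. Levels are given as CPM, the counts of a gene relative to the TMM-scaled total of its library in M, and levels of different genes are compared only as CPM per kilobase (kb) of annotated exon. As total splenocytes were measured, fewer cells of a type and less RNA per cell cannot be told apart. B cell and T cell genes were present in every library. The 5 B cell markers summed to 4228 to 5358 CPM in the control mice and 4612 to 4907 CPM in the tRA mice, with Cd79a the most abundant and no marker at 0. The 7 T cell markers summed to 1445 to 1754 CPM in the control mice and 1621 to 1740.4 CPM in the tRA mice, with Trac the most abundant and no marker at 0.

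Of the 61 genes, 58 passed the filter on low counts and were tested among 16484 genes. Eef1a2, the elongation factor form known from muscle and neurons, and Eif4e1b, a cap-binding form known from the germ line, had 0 counts in each of the 8 libraries. A count of 0 in the 269 M counts of all libraries allows a level of up to 0.0112 CPM, counting error only. Eef1akmt3, a methyltransferase of eEF1A, had 13, 11, 10 and 9 counts in control mice 1 to 4 and 7, 5, 12 and 2 counts in tRA mice 1 to 4, too few to test.

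The factors spanned a wide range of levels. Eef1a1, which carries aminoacyl tRNA to the ribosome, had the highest level per length at 3181 CPM per kb in the control mice, and Eef2, which drives translocation, came next at 1133 CPM per kb. Eif1, Eif4a2, Eef1b2, Eif3h, Eef1g and Eif5a followed at 215, 210.2, 194, 182, 180.5 and 171 CPM per kb. From 1 of these 6 to the next, the levels differed by less than the spread between mice. The lowest of the tested genes was Eif5a2, the second eIF5A gene, at 1.49 CPM per kb. Over the 8 mice the median factor stood at 25.0 CPM per kb, against 4.19 CPM per kb over all genes tested, and 55 of the 58 factors lay above the latter. All 61 genes together took 2.16, 2.14, 2.22 and 2.22% of the counts in control mice 1 to 4 and 2.26, 2.16, 2.15 and 2.14% in tRA mice 1 to 4. Eef1a1 and Eef2 held 51.9, 53.4, 51.97 and 54.9% of that share in the control mice and 54.2, 53.3, 54.8 and 55.03% in the tRA mice, so that these groups overlapped.

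With tRA, 0 of the 58 factor genes were called at an FDR under 0.1 by edgeR (quasi-likelihood, Benjamini-Hochberg), where 0% of all 16484 genes were called. DESeq2 called 27 genes and 0 of the factors, and the lowest FDR of a factor in edgeR was 0.757. At an unadjusted p under 0.05 in edgeR, 0 factors were higher with tRA, beside 2.94% of all genes tested, and 4 were lower, beside 3.55%. The 4 were Eif3k, Eif5a, Eef1b2 and Eif3f. In the same terms 1 factor, Eif4enif1, had all 4 tRA mice above all 4 control mice, beside 1.91% of all genes, and 0 factors had all tRA mice below, beside 1.63%. These counts changed when single mice were left out, which also left fewer mice in the test. Leaving out control replicate 1, tRA replicate 3 or tRA replicate 4 brought the number at an unadjusted p under 0.05 from 4 to 0, beside 5.25, 5.21 and 3.93% of all genes tested, where it was 6.49% with all mice. It was 1 when control replicate 3 (Eif4ebp3, beside 5.44% of all genes) or tRA replicate 2 (Eif3f, beside 4.55%) was left out. Without tRA replicate 1 it was 8 of 59, when the share over all genes also rose, to 12.6%. The number of factors whose groups do not overlap was 12 of 59 without tRA replicate 1 (3 above and 9 below), beside 12.6% of all genes, where 3.54% did not overlap with all mice. It was 3 without tRA replicate 3, beside 6.35%, and 2 without control replicate 1, beside 6.3%.

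The fold changes of the factors were small. On the log2 scale, tRA over control, they ran from -0.35 for Eef1b2 to 0.11 for Eif2d, with a median of -0.040 against 0.0014 over all genes tested. Of the 58 factors, 16 had a positive and 42 a negative fold change, and with library size alone as the scaling the split was 27 positive and 31 negative. With that scaling the median was 0.031 over all genes tested and -0.011 for the factors, so both had moved up. Without control replicate 3 the split was 26 positive and 33 negative. Under at least 1 alternative the sign turned for 25 of the 58, all with absolute values of at most 0.072, and among them were Eef2k, Eif2b5, Eif3h, Eif4a2, Eif4e and Eif4ebp2. The median absolute log2 fold change was 0.055 for the factors and 0.11 for all genes tested. Variation between mice was also lower, with a median coefficient of variation over the 8 mice of 8.32% for the factors and 14.0% for all genes tested. Neither comparison was matched for level, and 55 of the 58 factors lay above the median level of all genes tested. For 53 of the 58 factors, the 95% confidence interval of the log2 fold change lay between -0.5 and 0.5.

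**Figure D1:**
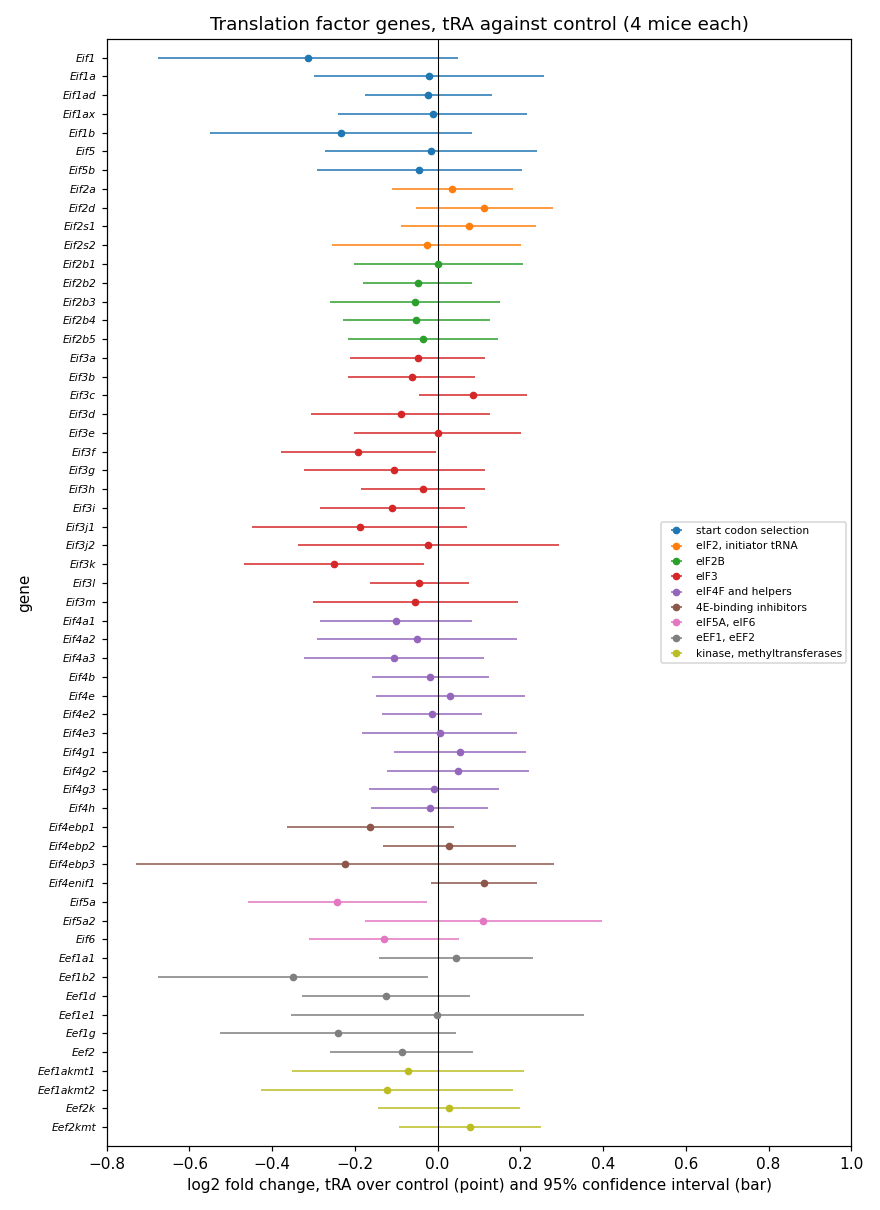
Log2 fold change of each of the 58 tested factor genes, tRA over control, with 4 mice in each group. Points are edgeR estimates, bars are 95% confidence intervals, and colours mark the roles. The points run from -0.35 to 0.11, and 42 of the 58 lie left of 0. With library size alone as the scaling it was 31 of 58, where the median over all genes tested was 0.031.

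Among the 7 genes of start codon selection, all had a negative log2 fold change, with a median of -0.023. Only 3 did with library size alone, where the median over all genes tested was 0.031, or without control replicate 3. It was 4 without control replicate 1 or without tRA replicate 3. The 7 include Eif1ad, whose value was the median and whose part in start codon selection is not established here. None of the 7 reached an unadjusted p under 0.05. Without tRA replicate 1, both Eif1 and Eif1b did, and Eif1 also did with the replicate number as a block and with no filter. Eif1, which guards the fidelity of start codon choice, stood at 499, 404, 513 and 389.6 CPM in control mice 1 to 4 and at 487, 381, 283 and 302 CPM in tRA mice 1 to 4. Control 1, control 3 and tRA 1 were high and tRA 3 and tRA 4 were low, so the groups overlapped. Its log2 fold change was -0.31 with a standard error of 0.165 (edgeR, unadjusted p = 0.0842, FDR 0.780), and -0.49 without tRA replicate 1 (unadjusted p = 0.00385, FDR 0.227). Eif1b, its paralog, had a log2 fold change of -0.23 (-0.11 without control replicate 3 and -0.35 without tRA replicate 1), whereas Eif5, the GTPase-activating protein of eIF2, had one of -0.016 and Eif5b, which joins the subunits, one of -0.045. Eif1a and Eif1ax encode near-identical eIF1A proteins and stood at 8.64 and 8.36 CPM per kb in the control mice.

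The eIF2 complex brings the initiator tRNA, and eIF2B exchanges its guanine nucleotide. Of the 4 genes of initiator tRNA delivery, 3 had a positive log2 fold change (median 0.055), and of the 5 eIF2B genes 4 had a negative one (median -0.048), which became 2 without control replicate 3 and 2 with the offset on exon length described below. Eif2s1, the alpha subunit that stress kinases phosphorylate, stood at 75.8 ± 5.78 CPM in control and 79.8 ± 5.04 CPM in tRA mice (SD, n = 4). The 95% confidence interval of its log2 fold change was -0.089 to 0.24. Eif2d, a factor that can also load tRNA, stood at 49.96, 52.2, 51.7 and 57.7 CPM in control mice 1 to 4 and at 51.5, 57.2, 60.5 and 59.6 CPM in tRA mice 1 to 4. Its groups overlapped through control 4 and tRA 1, and its exons share bases with Rassf5 on the other strand. The log2 fold change of Eif2d was 0.11 with a standard error of 0.0753 (edgeR, FDR 0.796). Eif2b5, the catalytic subunit of eIF2B, was the most abundant of its complex at 25.98 CPM per kb in the control mice, and Eif2b3 had a log2 fold change of -0.055. With single mice left out, the value of Eif2b3 ran from -0.11 (control 2) to -0.024 (tRA 4).

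The eIF3 complex is the scaffold on which the other initiation factors meet the small subunit. Of its 14 genes, 12 had a negative and 2 a positive log2 fold change, with a median of -0.059, and 2 were lower at an unadjusted p under 0.05. Eif3k, a peripheral subunit (chr7:28971372-28981864 in GRCm38, minus strand), stood at 152, 137, 163 and 139.7 CPM in control mice 1 to 4 and at 149, 119, 109 and 121 CPM in tRA mice 1 to 4. Of the tRA mice, only tRA 1 lay within the control range. The log2 fold change of Eif3k was -0.25 with a standard error of 0.0986 (edgeR, unadjusted p = 0.0283, FDR 0.757). Eif3f, a subunit with an MPN domain (chr7:108934417-108942951 in GRCm38, plus strand), stood at 282, 251, 291 and 248 CPM in control mice 1 to 4 and at 258, 246, 220.0 and 214 CPM in tRA mice 1 to 4. Again tRA 1 lay within the control range, while tRA 2, tRA 3 and tRA 4 lay below it. Its log2 fold change was -0.19 with a standard error of 0.0847 (edgeR, unadjusted p = 0.0454, FDR 0.757). The core subunits Eif3a, Eif3b and Eif3c had log2 fold changes of -0.049, -0.063 and 0.085. Eif3h had the highest level of the complex, 182 CPM per kb in control and 177 CPM per kb in tRA mice, and Eif3j1 the lowest, 4.60 and 4.04 CPM per kb.

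The eIF4F complex joins the cap-binding eIF4E, the helicase eIF4A and the scaffold eIF4G. Of the 11 tested genes of eIF4F and its helpers, 4 had a positive and 7 a negative log2 fold change, with a median of -0.014 and values from -0.11 for Eif4a3 to 0.055 for Eif4g1. With library size alone, where the median over all genes tested was 0.031, 3 of the 11 were negative. None of the 11 reached an unadjusted p under 0.05. Eif4e stood at 48.9, 39.3, 47.9 and 43.5 CPM in control mice 1 to 4 and at 46.2, 47.7, 42.8 and 46.9 CPM in tRA mice 1 to 4, and the tRA values lay inside the control range. Eif4a1 had 442 ± 12.5 CPM in control and 412 ± 44.8 CPM in tRA mice (SD, n = 4), the wider spread coming from tRA 3 and tRA 4 at 370.1 and 378 CPM. Eif4g1 had 455 ± 18.04 CPM in control and 472 ± 33.3 CPM in tRA mice (SD, n = 4), with tRA 3 the highest at 519.5 CPM. The 95% confidence intervals of the log2 fold change were -0.15 to 0.21 for Eif4e, -0.29 to 0.083 for Eif4a1 and -0.10 to 0.21 for Eif4g1. Eif4a2 was the most abundant gene of the group per length and had a log2 fold change of -0.050, and it shares exonic bases with small nucleolar RNA genes. Eif4a3 belongs to the exon junction complex, and leaving out control 3, tRA 3 or tRA 1 gave it values of -0.045, -0.065 and -0.18.

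The proteins that bind eIF4E and keep it from eIF4G are the switch that mTORC1 acts on. Eif4ebp2 had the highest level of the 4, at 42.2 CPM per kb in control mice against 19.1 for Eif4enif1, 6.57 for Eif4ebp1 and 4.55 for Eif4ebp3. Eif4ebp1 stood at 14.7, 13.8, 15.2 and 13.99 CPM in control mice 1 to 4 and at 14.1, 12.2, 12.04 and 13.2 CPM in tRA mice 1 to 4. Of the tRA mice, tRA 2, tRA 3 and tRA 4 lay below all control mice and tRA 1 did not. Its log2 fold change was -0.16 (edgeR, unadjusted p = 0.104, FDR 0.787) and that of Eif4ebp2 was 0.028. Eif4ebp3, at 3.38 ± 1.01 CPM in control and 2.89 ± 0.368 CPM in tRA mice (SD, n = 4), had a log2 fold change of -0.22 with the widest interval of the factors, -0.73 to 0.28. Its value was -0.41 without control replicate 3 (unadjusted p = 0.0398), and it was -0.13, -0.089 and -0.15 when control 1, control 2 or tRA 2 was left out.

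Eif4enif1 encodes 4E-T, which carries eIF4E into the nucleus and into processing bodies (chr11:3202392-3244588 in GRCm38, plus strand). It stood at 122, 123, 122 and 120.3 CPM in control mice 1 to 4 and at 127, 129.8, 142 and 128 CPM in tRA mice 1 to 4. The control mice lay close together, tRA 3 was highest, and the groups did not overlap, which is why this gene is named. The log2 fold change was 0.11 with a standard error of 0.0582, and edgeR gave an unadjusted p of 0.0796 and an FDR of 0.780. The groups overlapped with upper quartile normalization and with library size alone, where Eif4ebp1 in its place had all tRA mice below, and they overlapped after an offset on exon length chosen after seeing the data.

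Eif5a encodes the hypusine-carrying factor that helps the ribosome through difficult stretches, and Eif6 keeps the large subunit from joining too early. Eif5a (chr11:69916714-69921958 in GRCm38, minus strand) stood at 439, 394, 422 and 370.2 CPM in control mice 1 to 4 and at 404, 351, 302 and 317 CPM in tRA mice 1 to 4. Only tRA 1 lay within the control range, and tRA 3 was lowest. The log2 fold change of Eif5a was -0.24 with a standard error of 0.0986 (edgeR, unadjusted p = 0.0323, FDR 0.757). Eif6 had a log2 fold change of -0.13 and the low Eif5a2 one of 0.11, and leaving out control 3, tRA 4, control 1 or tRA 3 gave 0.049, 0.048, 0.19 and 0.18 for the latter. The enzymes that place hypusine on eIF5A, Dhps and Dohh, had log2 fold changes of -0.13 and -0.19, and neither reached an unadjusted p under 0.05 in edgeR, though Dohh did without tRA replicate 1.

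Of the 6 tested genes of eEF1 and eEF2, 5 had a negative and 1, Eef1a1, a positive log2 fold change, with a median of -0.11. One of the negative values, that of Eef1e1, was -0.00057. The split was 2 positive and 4 negative with DESeq2, library size alone, no filter, the replicate block and the offset on exon length, among others. Eef1a1 (chr9:78478449-78489151 in GRCm38, minus strand) stood at 7692, 7568, 8169 and 8288 CPM in control mice 1 to 4 and at 8763, 8118, 7866 and 7977 CPM in tRA mice 1 to 4. Eef2 (chr10:81176631-81182498 in GRCm38, plus strand) stood at 3692, 3739, 3781 and 3859 CPM in control mice 1 to 4 and at 3852, 3431, 3379 and 3527 CPM in tRA mice 1 to 4. For Eef2 the control mice lay close together and tRA 1 lay among them, while for Eef1a1 tRA 1 was the highest of all mice. The log2 fold changes were 0.045 for Eef1a1 and -0.087 for Eef2, with 95% confidence intervals of -0.14 to 0.23 and -0.26 to 0.086. For Eef1a1 it was 0.0105 without tRA replicate 1 and 0.023 without control replicate 2. It was 0.073 with library size alone and 0.087 with the offset on exon length.

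The exchange factor that recharges eEF1A is made of the products of Eef1b2, Eef1d and Eef1g, and all 3 had negative values. Eef1b2 (chr1:63176825-63180486 in GRCm38, plus strand), its nucleotide exchange subunit, stood at 496, 393, 614 and 465 CPM in control mice 1 to 4 and at 483, 384, 339 and 338 CPM in tRA mice 1 to 4. Control 3 was far higher than any other mouse, tRA 3 and tRA 4 were lowest, and the groups overlapped. Its log2 fold change of -0.35 had a standard error of 0.148 (edgeR, unadjusted p = 0.0378, FDR 0.757), and it was -0.23 without control replicate 3 (unadjusted p = 0.1204). Exons of Eef1b2 share bases with Ndufs1 on the other strand. Eef1g, its structural subunit, showed a similar order, with 471, 398, 555 and 452 CPM in control mice 1 to 4 and 491, 402, 350.1 and 346 CPM in tRA mice 1 to 4. The log2 fold changes of Eef1g and Eef1d were -0.24 and -0.13, and -0.16 and -0.053 without control replicate 3. Eef1d was at -0.19 without control replicate 2 and at -0.080 without tRA replicate 4. Eef1g was named after its values were seen. Eef1e1, whose product belongs to the aminoacyl tRNA synthetase complex, had 13.7 ± 2.73 CPM in control and 13.7 ± 2.28 CPM in tRA mice (SD, n = 4).

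Among the 4 tested genes of enzymes that modify elongation factors, 2 had a positive and 2 a negative log2 fold change. Eef2k, the kinase that inhibits eEF2, stood at 27.8, 31.6, 29.5 and 31.4 CPM in control mice 1 to 4 and at 28.8, 30.95, 33.6 and 29.2 CPM in tRA mice 1 to 4, with overlapping groups. Its 95% confidence interval on the log2 scale was -0.14 to 0.20, and its sign turned with the length offset and when control replicate 1 or tRA replicate 3 was left out. Eef1akmt2, a lysine methyltransferase of eEF1A, had the highest level of these genes at 9.52 CPM per kb in control mice. Its log2 fold change of -0.12 became -0.010, -0.043, -0.19 and -0.19 when control 3, tRA 4, control 2 or tRA 1 was left out.

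**Figure D2:**
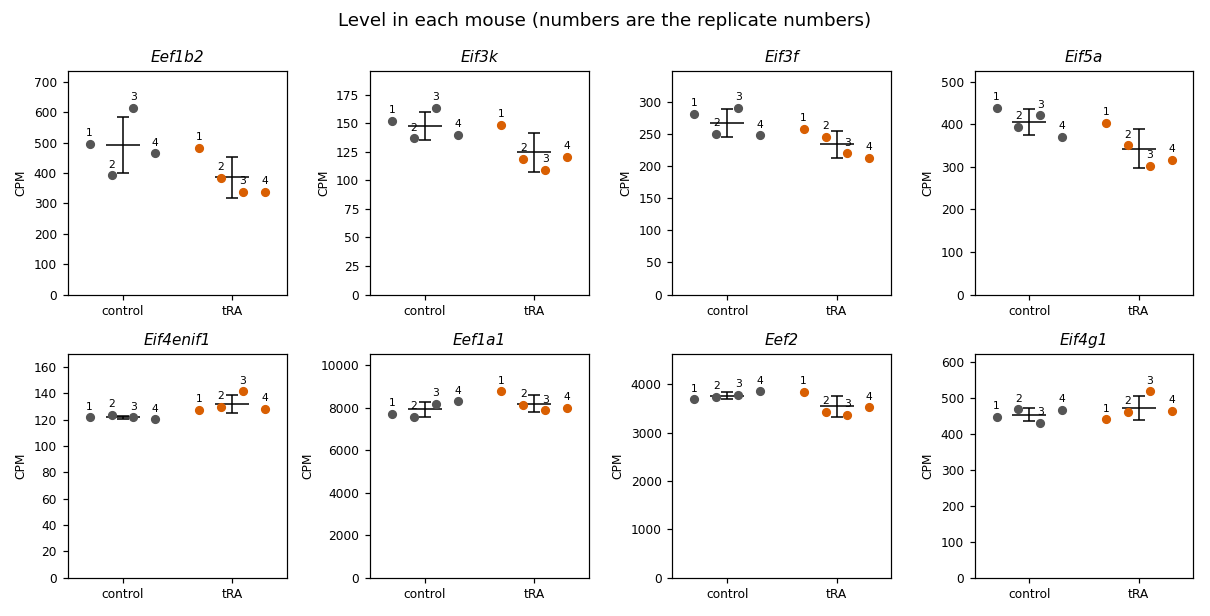
CPM of 8 factor genes in each mouse, with the replicate number above each point and a vertical axis from 0. Lines are the group mean and bars 1 SD over 4 mice. Groups overlap for all genes shown other than Eif4enif1, whose control mice lie between 120.3 and 123 CPM and whose tRA mice lie between 127 and 142 CPM.

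Control 3 held the highest value for 31 of the 58 factors (53.4%, beside 21.7% of all genes tested), while the lowest value was in tRA 3 for 16, in control 2 for 13 and in tRA 4 for 13 (27.6, 22.4 and 22.4%, beside 14.5, 9.83 and 12.3% of all genes). The median deviation of the factors from their means over the 8 mice was 0.051, -0.069, 0.15 and -0.0094 on the log2 scale in control mice 1 to 4 and 0.057, -0.0078, -0.085 and -0.052 in tRA mice 1 to 4. The groups overlapped, as control 2 was the second lowest mouse and tRA 1 the second highest. Across the 58 factors, Spearman's rho between exon length and deviation was -0.26, 0.048, -0.37 and -0.049 in control mice 1 to 4 and -0.32, 0.43, 0.35 and 0.29 in tRA mice 1 to 4. Across all genes tested with an annotated length it was -0.071, -0.0051, -0.24 and -0.0021 in control mice 1 to 4 and -0.095, 0.065, 0.15 and 0.21 in tRA mice 1 to 4, given as a description, since genes are not independent replicates. Of the 29 factors with under 3575 bp of exon, 24 had a negative log2 fold change, with a median of -0.072, and of the 29 longer ones 18, with a median of -0.016. Over all genes tested, 59.6% of the shorter and 40.5% of the longer genes had a negative one. With an offset on exon length, chosen after seeing the data, 38 of 58 factors had a negative log2 fold change and 1, Eif3k, an unadjusted p under 0.05 in edgeR, beside 5.92% of all genes tested. The log2 fold changes of Eif3k, Eef1b2 and Eif3f were then -0.21, -0.31 and -0.16, against -0.25, -0.35 and -0.19 without the offset. Their unadjusted p in edgeR with it was 0.0489, 0.0501 and 0.075. Eif5a, under 0.05 without the offset, was also not under 0.05 with it. Beyond this offset, the part of exon length in the differences was not tested.

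**Figure D3:**
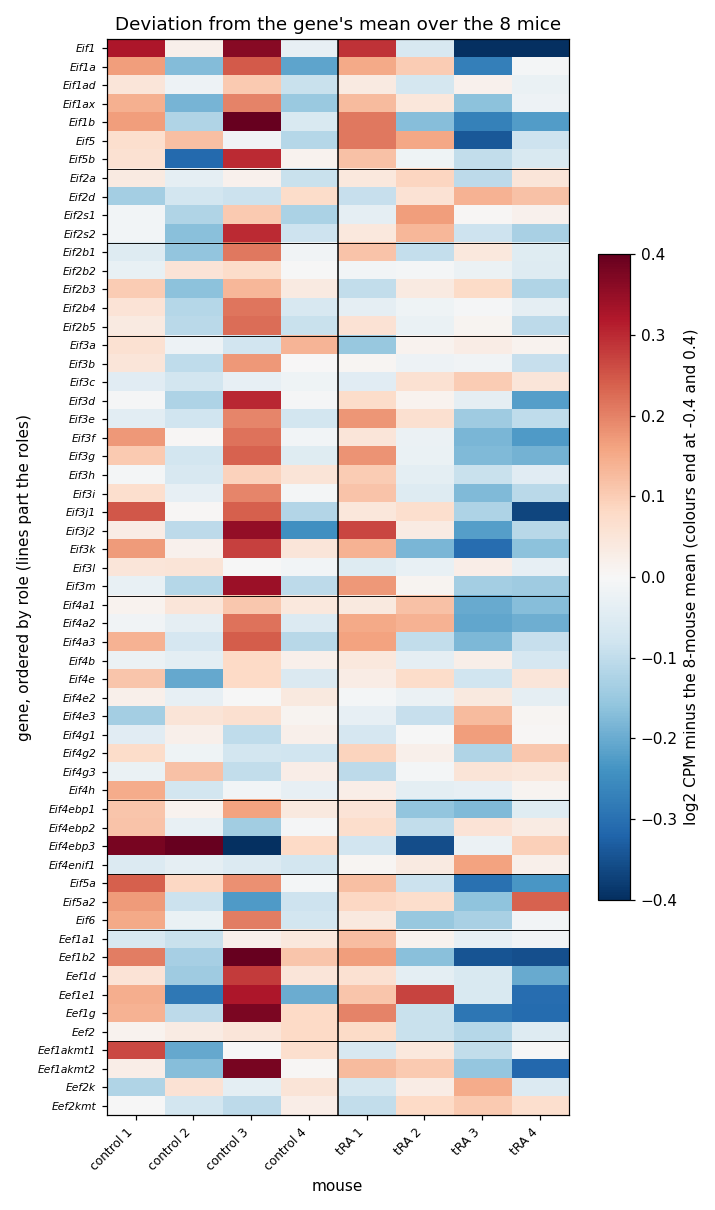
Log2 CPM of each tested factor gene minus its mean over the 8 mice, with genes ordered by role, mice in columns and a line between the groups. Red is above and blue below the mean of that gene, with colours ending at -0.4 and 0.4. Control 3 is the highest mouse for 31 of the 58 genes and tRA 3 the lowest for 16.

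Ratios between related factors within a mouse do not depend on the scaling of the libraries. Of 10 ratios of levels per kb, chosen after seeing the data, 3 had groups that did not overlap, a count that describes these pairs only, as no share over all pairs of genes stands beside it. Eef1a1 over Eef2 was 2.78, 2.70, 2.88 and 2.86 in control mice 1 to 4 and 3.03, 3.15, 3.10 and 3.02 in tRA mice 1 to 4. Eif5a over Eif5a2 was 106, 114, 135 and 107 in control mice 1 to 4 and 104, 91.3, 92.5 and 73.5 in tRA mice 1 to 4. Every tRA mouse lay above every control mouse in the first ratio and below in the second. Eif4ebp2 over Eif4ebp1 was 6.88, 6.65, 5.56 and 6.65 in control mice 1 to 4 and 6.93, 7.15, 8.05 and 7.25 in tRA mice 1 to 4, with all tRA mice above by a small margin, and these groups overlapped after the length offset. Eif4a2 over Eif4a1 was 2.06 ± 0.138 in control and 2.13 ± 0.0920 in tRA mice (SD, n = 4), so that the groups did not differ beyond their spread. Eif1ax over Eif1a was 0.971 ± 0.0320 and 0.977 ± 0.0511 in the same terms, a pair between which counting may split reads.

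The pathways that act on these factors were counted in the same way. Of 14 genes of the mTORC1 and 4E-BP axis, 0 were called by edgeR at an FDR under 0.1, 9 had a positive and 5 a negative log2 fold change, and 1 was higher and 1 lower at an unadjusted p under 0.05, beside 2.94 and 3.55% of all genes. Neither was under 0.05 without control replicate 1, without tRA replicate 4 or with the length offset. Rps6kb1 also was not with no filter, with the replicate block, or without control replicate 2, control replicate 4 or tRA replicate 2. Rps6 also was not without control replicate 3 or tRA replicate 3, and Mtor was added without tRA replicate 1. Rps6kb1, the S6 kinase, stood at 99.5, 97.9, 106 and 100.2 CPM in control mice 1 to 4 and at 107, 113, 108 and 116 CPM in tRA mice 1 to 4, and every tRA mouse lay above every control mouse, as for 1.91% of all genes. Rps6, its ribosomal substrate, stood at 545, 465, 537 and 499.9 CPM in control mice 1 to 4 and at 506, 429, 363 and 399 CPM in tRA mice 1 to 4, with overlap through tRA 1. Their log2 fold changes were 0.14 and -0.27 (edgeR, unadjusted p = 0.0386 and 0.0245, FDR 0.757 for both). Rps6 was also the most abundant gene of the list.

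Of 12 genes of the eIF2 kinases and the integrated stress response, 11 were tested, 3 with a positive and 8 with a negative log2 fold change, and 0 reached an unadjusted p under 0.05 in edgeR. Under alternatives on all 8 mice, Atf4 and Ddit3 did with no filter, Ddit3 and Ppp1r15a with the replicate block and Ddit3 by limma-voom. With mice left out, Atf4, Ddit3 and Ppp1r15a did without tRA replicate 1 and Sesn2 without control replicate 3. The 4 eIF2 kinases had log2 fold changes from -0.030 to 0.051. Ppp1r15a, which leads a phosphatase to eIF2 and was the most abundant of the list, stood at 905, 776, 917 and 803 CPM in control mice 1 to 4 and at 1037, 733, 339 and 428 CPM in tRA mice 1 to 4. There tRA 3 and tRA 4 lay far below the other 6 mice and tRA 1 was the highest. Atf4 and Ddit3, transcription factors of the response named after their values were seen, had log2 fold changes of -0.34 and -0.53, with tRA 3 and tRA 4 lowest for both. Of 9 genes of poly(A) binding, termination, recycling and hypusine synthesis, 4 had a positive and 5 a negative value, 0 reached an unadjusted p under 0.05 (Abce1 did with upper quartile scaling and with library size alone), and the most abundant, Pabpc1, had a log2 fold change of 0.044. Of 8 mitochondrial translation factors, 6 had a positive and 2 a negative value, and 1, Gfm2, was higher at an unadjusted p under 0.05, beside 2.94% of all genes, while Tufm was the most abundant. The split was 3 positive and 5 negative without control replicate 1 and also without control replicate 2. Gfm2, a mitochondrial ribosome recycling factor, stood at 55.05, 56.4, 52.96 and 56.5 CPM in control mice 1 to 4 and at 57.5, 58.98, 62.3 and 64.6 CPM in tRA mice 1 to 4, with no overlap. Its log2 fold change was 0.14 (edgeR, unadjusted p = 0.0499, FDR 0.757), and its p was above 0.05 when any 1 mouse other than tRA 1 was left out. On all 8 mice, its p was also above 0.05 with upper quartile scaling, no filter, at least 10 counts in every sample, the block and the length offset. The same held by DESeq2 and limma-voom. It was under 0.05 with RLE scaling, library size alone and DESeq2 on the genes kept by filterByExpr.

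Markers of other cells and of cell activation also differed between the mice. All 8 neutrophil precursor markers had a negative log2 fold change (median -0.90) and an unadjusted p under 0.05 in edgeR, beside 3.55% of all genes, and none was at 0 counts. At an FDR under 0.1, edgeR called 0 of them after the filter on low counts, but Camp, Ltf and Ngp with no filter or without tRA replicate 4. DESeq2 called these 3 and Lcn2, and limma-voom called Camp. Their sum was 542, 680.0, 715 and 614 CPM in control mice 1 to 4 and 242, 301, 329 and 477 CPM in tRA mice 1 to 4, with no overlap, and Ngp was the most abundant. All 10 immediate early and heat shock genes had a negative value (median -0.64), and Dnajb1, Egr1, Fosb, Hspa1a, Hspa1b and Jun reached an unadjusted p under 0.05 in edgeR, of which DESeq2 called Egr1 and Jun. Hspa1a and Hspa1b did not without control replicate 3, nor Hspa1b without tRA replicate 1. Fos and Junb were added with no filter, with the replicate block and without tRA replicate 1, where Nr4a1 was added too. The sum of all 10 was 16544, 15493, 16989 and 13891 CPM in control mice 1 to 4 and 14391, 12102, 5459 and 7899 CPM in tRA mice 1 to 4, with Fos the most abundant and none at 0. In this sum, as in Eif1, Eef1b2 and Eef1g, tRA 3 and tRA 4 were the lowest mice. Of 6 plasma cell markers, 4 had a negative value, and Derl3, Jchain and Tnfrsf17 were lower at an unadjusted p under 0.05. Derl3 was not with library size alone, with the length offset, or without control replicate 4, tRA replicate 1 or tRA replicate 4. The 6 plasma cell markers summed to 721, 700.2, 773 and 905 CPM in control mice 1 to 4 and 514, 714, 601 and 590.1 CPM in tRA mice 1 to 4, with Jchain the most abundant and none at 0. The part of these cells and genes in the values of the translation factors was not tested.

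The other lists had no marker at 0 and, in edgeR with TMM, the filter and all mice, no gene at an unadjusted p under 0.05. Of 6 dividing cell markers 3 had a negative log2 fold change, and they summed to 141 to 182 CPM in the control mice and 118 to 237 CPM in the tRA mice, Mcm5 being the most abundant. Without tRA replicate 3 all 6 were negative, and Birc5, Cdk1 and Top2a had an unadjusted p under 0.05. Of 6 erythroid markers 1 was negative, with sums of 811, 1526, 2396 and 491 CPM in control mice 1 to 4 and 2286, 623, 3541 and 587 CPM in tRA mice 1 to 4, led by Hbb-bs. Control 3, tRA 1 and tRA 3 were the high mice there, and 5 of the 6 were negative without tRA replicate 3. Of 6 red pulp macrophage markers 5 were negative, with sums of 349.5 to 558 CPM in the control mice and 321 to 505 CPM in the tRA mice, led by Hmox1. It was 3 of 6 without control replicate 2 or without tRA replicate 1, and 6 of 6 without tRA replicate 3. Of 6 dendritic cell markers 5 were negative, with sums of 137 to 208 CPM in the control mice and 119.7 to 175 CPM in the tRA mice, led by Itgax. Their count was 3 without control replicate 4 or without tRA replicate 1, and 6 without control replicate 3 or without tRA replicate 4. The B cell and T cell lists had 2 of 5 and 2 of 7 negative values. For the B cell list it was 1 without control replicate 1 and 4 without control replicate 4, and for the T cell list 1 without control replicate 3. Under alternatives on all 8 mice, Cd4 came under an unadjusted p of 0.05 with upper quartile scaling, library size alone, no filter, the replicate block, DESeq2 and limma-voom. Cd3e did so with no filter, the block, the length offset and DESeq2, Trac and Flt3 with the offset, and C1qa and Birc5 with the block. Single left-out mice brought Ms4a1 (control 1), Cd3e, Cd4 and Trac (control 4), Cd3e (tRA 1), Cd4 (tRA 2), Flt3 (control 3) and C1qa and Cd5l (control 4) to an unadjusted p under 0.05.

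Gene starts were compared for shared letters. The promoter table of RefSeq (GRCm38.p6) held 59 windows, from 250 bases before to 50 after a start, for 45 of the 61 factors. Both strands were searched for each motif. The ETS motif CCGGAAGT was in 16.9% of the factor windows and 3.89% of all 32817 windows, and the E-box CACGTG in 23.7% and 7.15%. The CRE TGACGTCA was in 1.69% and 1.79%, and TATAAA in 6.78% and 13.6%. The factor windows were also richer in G and C, with a median of 62.7% against 52.7%. A direct repeat of AGGTCA, the half-site that retinoic acid receptors bind, with 5 or 2 bases between its copies was in 0 factor windows and in 3 of all windows for each spacing. An exact repeat this rare cannot show an absence in 59 windows, and variants of the half-site were not searched. A C at the start followed by 4 pyrimidines, as in the pyrimidine tract that ties the translation of such mRNAs to mTORC1, was at 1 factor start (Eif3f) and at 2.502% of all starts. This search read only the annotated start base, so a tract at a start placed a few bases away was missed. It does not show that the other factor mRNAs lack the tract. A match is a description of letters and shows no binding.

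The stretch from 60 bases before to 20 after the start is shown for the 4 factors at an unadjusted p under 0.05 in edgeR, and for Eef2, whose stretch carries an E-box, TATAAA and a CRE. Capitals mark ETS, E-box, CRE and TATAAA matches and, in Eif3f, the pyrimidine tract at the start. Eif5a has 6 starts in the table, and the only one with an ETS match in this stretch was picked for it.
Eef1b2 (chr1:63176771-63176850, plus strand): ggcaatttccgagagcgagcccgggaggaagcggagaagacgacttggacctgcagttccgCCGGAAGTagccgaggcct
Eif3f (chr7:108934355-108934434, plus strand): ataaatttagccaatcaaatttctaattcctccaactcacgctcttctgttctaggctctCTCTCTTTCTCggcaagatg
Eif3k (chr7:28981869-28981948, minus strand): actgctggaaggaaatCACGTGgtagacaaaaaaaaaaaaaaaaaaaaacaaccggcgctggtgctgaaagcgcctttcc
Eif5a (chr11:69920611-69920690, minus strand): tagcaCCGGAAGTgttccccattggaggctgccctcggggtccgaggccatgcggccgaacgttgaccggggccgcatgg
Eef2 (chr10:81176571-81176650, plus strand): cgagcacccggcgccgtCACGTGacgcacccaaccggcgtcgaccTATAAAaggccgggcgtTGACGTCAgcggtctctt
The stretch of Eef1b2 and the picked one of Eif5a hold the ETS motif, and that of Eif3k the E-box. In the full windows, Eif3f, Eif3k and Eif5a hold the E-box, and Eef1b2 does not.

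Counting limits some of these values. Exons of 25 of the 61 factor genes share bases with another gene, 15 of them with a gene on the other strand, and whether counting used the strand is not stated in the sources used here. Besides the 61 genes, 9 symbols of the same pattern are not protein coding, most of them pseudogenes by name, and reads of Eif1, Eif3e, Eif4a1 and Eif5a may be split with such copies.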

How the data were processed

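RNA of total splenocytes from 8 mice was sequenced, and the authors deposited raw counts per Ensembl gene for each mouse. The study's methods name ea-utils and Btrim for trimming, Bowtie2 and Tophat2 for alignment and HTSeq for counting, whereas the submitters' processing notes name STAR 2.5.2b, featureCounts 1.5.1, DESeq2 1.26.0 and GRCm38, and these accounts were not reconciled. A deposited DESeq2 table with the authors' means, log2 fold changes and p-values was not used. Symbols, positions and exon lengths came from GENCODE M21, which holds 51633 of the 51826 identifiers.

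Genes were filtered by filterByExpr (minimum count 10), scaled by TMM and tested with edgeR 4.0.16 (quasi-likelihood, R 4.3.3) on all 8 mice, with Benjamini-Hochberg adjustment over 16484 genes and an FDR under 0.1 as the threshold. The procedure was tested on simulated data. Alternatives were DESeq2 1.42.0, limma-voom (limma 3.58.1), other scalings and filters, the replicate number as a block, each mouse left out in turn and, chosen after seeing the data, DESeq2 on the genes kept by filterByExpr and a loess offset on exon length (span 0.5). Figures were drawn with matplotlib 3.10.9.

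The members and lists were chosen with earlier results of these data known. Genes were named by rule: an FDR under 0.1, an unadjusted p under 0.05, groups that do not overlap, the highest level and largest absolute fold change of each role list, those that failed the filter, and Eef1a1, Eef2, Eif5a, Eif4e, Eif4a1, Eif4g1, Eif2s1, Eif4ebp1, Eif4ebp2 and Eef2k. Of the pathway and marker lists, the most abundant gene and those at an unadjusted p under 0.05 were named. Other names serve as examples.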

Additional observations from a re-analysis of the deposited data

Results flagged for a closer look

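In 3 of 116 groups of 4 mice (58 factor genes in 2 groups), 1 mouse lay far from the other 3, where chance gives about 1 in 20 groups, or 5.8 of 116. Eif3a, the largest scaffold subunit of eIF3, stood at 393 CPM in tRA 1 and at 441 to 446 CPM in the other tRA mice. Eif3e, another eIF3 subunit, stood at 232.5 CPM in control 3 and at 192 to 197 CPM in the other control mice. Eif4a2, a helicase of eIF4F, stood at 1276 CPM in control 3 and at 1056 to 1088 CPM in the other control mice. What set these values apart was not tested.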

How the results depend on the processing

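The number of factor genes called at an FDR under 0.1 was 0 under each of the 18 alternatives, with a lowest FDR of 0.205. The number of all genes called, 0 in edgeR with TMM, came to 27 by DESeq2, 44 by DESeq2 on the genes kept by filterByExpr (chosen after seeing the data), 1 by limma-voom and 6 by edgeR without a filter. Leaving out single mice gave 0 to 3, and the 3 came without tRA replicate 4. The number of factors at an unadjusted p under 0.05, 4 beside 6.49% of all genes, became 1 beside 5.92% with the offset on exon length (chosen after seeing the data). The log2 fold changes of Eef1b2 and Eif3f were -0.31 and -0.16 with the offset, against -0.35 and -0.19 without it. Eif5a was not under 0.05 with the offset either. When single mice were left out, the number of factors at an unadjusted p under 0.05 was 0 to 8, beside 3.93 to 12.6% of all genes. The 1 factor whose groups did not overlap, beside 3.54% of all genes, became 0 with that offset, beside 3.32%. It became 1 to 12 when single mice were left out, beside 5.12 to 12.6%. Both the 8 and the 12 came without tRA replicate 1. The median log2 fold change of the factors, -0.040, was -0.075 to -0.017 with each mouse left out. It was -0.011 with library size alone, where the median over all genes tested was 0.031. The spread between mice of the factors' median deviation, an SD of 0.079, is wider than the median itself, so it cannot tell these values apart. The causes were not tested.

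Of the 23 named factors tested, 17 had the same sign under every alternative. With the offset on exon length, the log2 fold change turned for Eef2k (-0.00429), Eif2b5 (0.00576) and Eif3h (0.0271). With each mouse left out it was -0.0207 to 0.0558 for Eef2k, -0.0762 to 0.0322 for Eif2b5, -0.111 to 0.0106 for Eif4a2, -0.0279 to 0.0750 for Eif4e and -0.0187 to 0.0737 for Eif4ebp2, ranges that span 0. Of the ratios between factors, 3 to 4 of 10 had groups that did not overlap with each mouse left out and 2 with the offset.

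Deviations of mice with the same number in both groups had correlations of 0.21, -0.0236, -0.0219 and 0.308. The best match had the same number for control 1 and control 4, but not for control 2 and control 3. The titles give only the number, which was not taken as a pairing. With the number as a replicate block, 0 genes were called and 5 factors had an unadjusted p under 0.05, beside 7.28% of all genes. With 4 mice a group and a median standard error of 0.0849 on the log2 scale, differences as small as most of these could not be resolved at this depth and number of mice.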

Other observations

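Genes of the cytosolic ribosomal proteins, whose products the translation factors work on, were looked at after seeing the data. All 76 tested had a negative log2 fold change, tRA over control, with a median of -0.28, and this held under each of the alternatives other than without control replicate 3, where 75 of 76 were negative. By edgeR, 0 of them were called at an FDR under 0.1 and 38 had an unadjusted p under 0.05, beside 6.49% of all genes tested, and DESeq2 called 1. The number was 18 without control replicate 1 and 18 without control replicate 3, beside 5.25 and 5.44% of all genes, and 24, 20 and 21 without tRA replicates 2, 3 and 4, beside 4.55, 5.21 and 3.93%. It was 73 without tRA replicate 1, when 12.6% of all genes were under 0.05, and 25 with the offset on exon length, beside 5.92%. Their median deviation from the mean over the 8 mice, on the log2 scale, was 0.20, -0.0025, 0.28 and 0.073 in control mice 1 to 4 and 0.18, -0.13, -0.40 and -0.22 in tRA mice 1 to 4. Control 3 was highest and tRA 3 lowest, as for the translation factors, and tRA 1 lay above control 2 and control 4. Reads of these genes may be split with their many pseudogenes.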
